A study of Mus musculus with 8 samples.

Results

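The syndecan and glypican genes encode the heparan sulfate proteoglycans that sit on the cell surface. Here the 4 syndecan genes Sdc1, Sdc2, Sdc3 and Sdc4 and 4 glypican genes, Gpc1, Gpc2, Gpc5 and Gpc6, were taken from the GENCODE annotation. Each was taken with 20 kb on either side, and the H3K56ac peaks that overlapped these windows by at least 1 bp were collected. The glypican genes Gpc3 and Gpc4 on chromosome X are not members. The 8 members stand among 21938 protein-coding genes, and their windows held 82 of the 105600 peaks of the series. H3K56ac, the acetylation of lysine 56 in the core of histone H3, had been mapped by ChIP-seq, in which DNA bound by the antibody is sequenced, in freshly isolated muscle stem cells (MuSCs) of C57BL/6 mice. Sirt6mKO mice carried floxed alleles of Sirt6, which encodes a deacetylase of this mark, and the Pax7-ICNCre allele, whose Cre is expressed wherever Pax7 is and acts without an inducer. The labels call the other mice Control. The paper calls its controls wild type in places and elsewhere shows them as floxed Sirt6 mice without Cre. Whether the Control mice of these libraries carried floxed alleles is therefore not settled. The labels list 2 H3K56ac and 2 input replicates for each of the 2 genotypes, 8 libraries in 4 groups, but the material analysed was 1 merged peak list. It has no column for genotype or replicate and no signal value, so the members could not be compared between Control and Sirt6mKO, no value below has a replicate error. The list carries no read counts, so the depth behind a peak is not given.

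Syndecans are transmembrane proteins with a short cytoplasmic tail, whereas glypicans are held in the outer membrane leaflet by a glycosylphosphatidylinositol anchor. Both carry heparan sulfate chains that bind fibroblast growth factors, hepatocyte growth factor, Wnt proteins and matrix proteins and present them to signalling receptors. In skeletal muscle, syndecan-3 and syndecan-4 are surface proteins of MuSCs, and the heparan sulfate on MuSCs takes part in their response to growth factors. Acetylated histones of this kind are usually found at active promoters and enhancers.

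All 8 members carried H3K56ac at the promoter, but the extent of the mark along the gene differed widely between them. Sdc4, Sdc1, Sdc3 and Gpc1 were covered by peaks over more than 50% of their length, Sdc2 was covered in its 5′ part, and Gpc2, Gpc5 and Gpc6 carried little beyond the promoter peak. A promoter peak is a peak within 3 kb of an annotated transcription start site (TSS) of the gene, and 67.8% of all protein-coding genes had one. Of the 2 glypican genes that are not members, Gpc4 had one and Gpc3 had none. A peak lay directly over a TSS in all 8 members, against 62.1% of all protein-coding genes. The 4 members covered over at least 50% of the gene compare with 9.90% of all protein-coding genes, a limit chosen after the values were seen. No test was made of these counts, because family members are not replicates of a condition.

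Promoter sequences of 4 members are shown for comparison with the peaks described below. The RefSeq promoter set for GRCm38.p6 matched 5 of the 8 members, and its entries run from 250 bases before to 50 bases after a RefSeq TSS. For Sdc1, Sdc3, Sdc4, Gpc2 and Gpc5 the whole 300 bases lay under a peak. The 250 bases before the TSS are printed 5′ to 3′ on the strand of the gene. Capitals mark matches on either strand to the 6 motifs searched, which were the GC box spelled GGGCGG, the CCAAT box spelled CCAAT, the TATA box spelled TATAAA, the E-box of myogenic factors spelled CAGCTG, the AP-1 motif spelled TGANTCA and the TEAD motif spelled GGAATG. Sdc4, at chr2:164443189-164443438 on the minus strand, lies under the widest promoter peak of the family. Sdc3, at chr4:130792287-130792536 on the plus strand, has the highest GC content of the 5 promoters matched. Gpc2, at chr5:138279938-138280187 on the minus strand, shares its promoter peak with the divergent gene Stag3. Gpc5, at chr14:115091965-115092214 on the plus strand, lies under the only peak of its window.
Sdc4: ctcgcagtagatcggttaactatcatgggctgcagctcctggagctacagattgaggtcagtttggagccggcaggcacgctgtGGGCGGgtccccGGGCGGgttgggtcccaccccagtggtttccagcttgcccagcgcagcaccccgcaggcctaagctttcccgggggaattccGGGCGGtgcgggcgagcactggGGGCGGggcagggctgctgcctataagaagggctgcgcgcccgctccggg
Sdc3: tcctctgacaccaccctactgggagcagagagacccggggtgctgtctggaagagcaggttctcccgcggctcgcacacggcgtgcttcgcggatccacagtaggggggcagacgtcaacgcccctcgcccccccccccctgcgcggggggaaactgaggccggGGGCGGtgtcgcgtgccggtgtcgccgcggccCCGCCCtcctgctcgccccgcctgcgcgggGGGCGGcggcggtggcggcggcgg
Gpc2: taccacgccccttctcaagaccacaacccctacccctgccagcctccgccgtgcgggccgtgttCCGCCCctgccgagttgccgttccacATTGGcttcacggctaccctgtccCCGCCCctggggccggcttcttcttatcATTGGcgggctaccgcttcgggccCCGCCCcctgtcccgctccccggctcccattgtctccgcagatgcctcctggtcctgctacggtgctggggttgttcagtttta
Gpc5: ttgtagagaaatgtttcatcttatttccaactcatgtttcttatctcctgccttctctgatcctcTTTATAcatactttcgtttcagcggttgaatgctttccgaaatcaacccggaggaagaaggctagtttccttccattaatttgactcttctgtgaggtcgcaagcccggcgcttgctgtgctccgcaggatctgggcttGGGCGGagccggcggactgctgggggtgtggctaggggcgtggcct

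These promoters differed in base composition. GC content over the 300 bases was 77.7% at Sdc3, 67.7% at Sdc4, 66.3% at Sdc1, 65.7% at Gpc2 and 54.7% at Gpc5, beside a median of 56.3% and quartiles of 48.3% and 64.7% over 21263 promoters of protein-coding genes. The ratio of observed to expected CpG dinucleotides was 0.974 at Sdc3, 0.852 at Gpc2, 0.763 at Gpc5, 0.645 at Sdc4 and 0.486 at Sdc1, with a median of 0.567 over all promoters. GC content was thus above the upper quartile in Sdc1, Sdc3, Sdc4 and Gpc2 and near the median in Gpc5. The GC box was the most frequent motif, with 4 matches at Sdc4, 3 each at Sdc1, Sdc3 and Gpc2 and 1 at Gpc5, and 46.2% of all promoters held at least 1. The 4 matches at Sdc4 began 166, 154, 72 and 50 bases before the TSS and all lay on the strand of the gene, whereas the 3 at Gpc2 lay on the opposite strand. A CCAAT match occurred once at Sdc1 and in 2 places at Gpc2, each on the opposite strand, against 38.2% of all promoters with a match. The TATA box matched once, at Gpc5 on the opposite strand, and is present in 12.6% of all promoters. None of these 5 windows held the E-box, the AP-1 motif or the TEAD motif, which 15.6%, 6.99% and 13.6% of all promoters hold. The matches did not overlap one another. A match describes the letters only.

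The 8 windows together spanned 3029.71 kb, of which 148.6 kb or 4.91% was covered by peaks. No peak was shared between windows. The peaks were 208 to 13657 bp wide with a median of 1076 bp, beside 974 bp for all peaks of the series. Of the 82 peaks, 5 were at least 5 kb wide, a share near the 6.00% of all peaks of the series. In all, 57 peaks overlapped a member gene, 5 lay upstream and 20 lay downstream. Syndecan windows held 66 peaks and glypican windows 16. The 2 large glypican genes weigh heavily on the total, since the windows of Gpc5 and Gpc6 made up 2564 kb with 4 peaks and 0.227% covered, while the windows of the other 6 members made up 465.5 kb with 78 peaks and 30.7% covered. The median covered share of a gene with 20 kb on either side was 36.6% for the syndecans and 12.3% for the glypican members, against 9.53% with quartiles of 1.08% and 20.6% for all protein-coding genes. The map of peaks by distance from the TSS shows these patterns gene by gene.

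**Figure D1:**
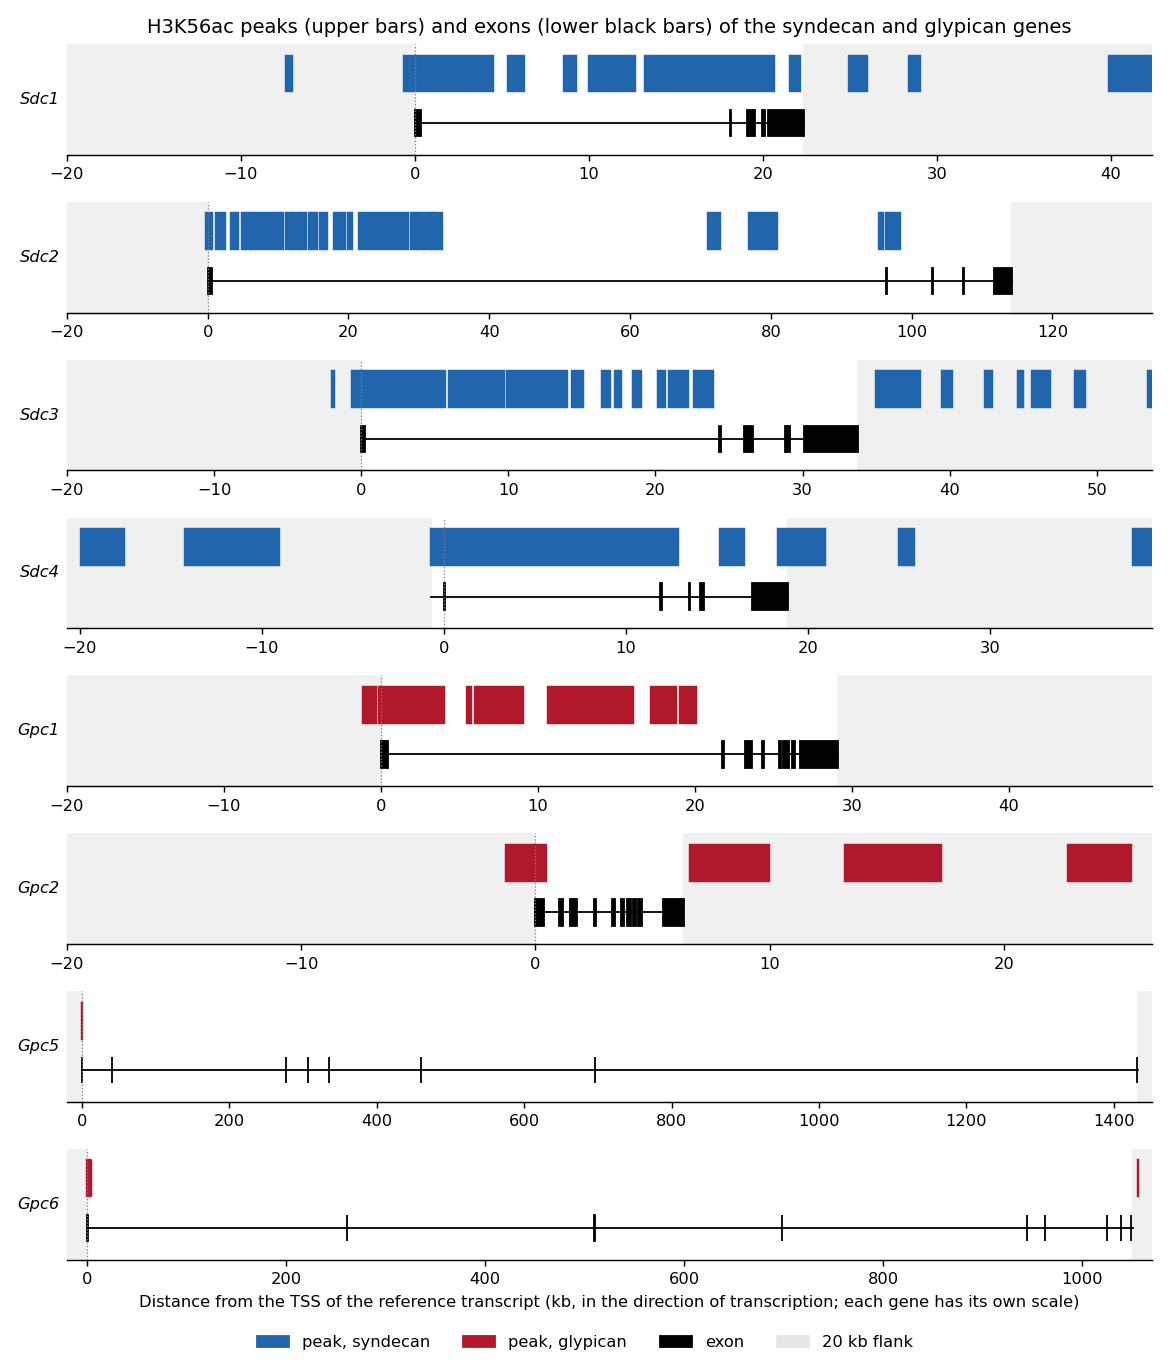
Peaks (coloured bars, upper track) and exons of the reference transcript (black, lower track) of the 4 syndecan genes (blue) and 4 glypican genes (red), by distance from the TSS in kb, drawn in the direction of transcription with a separate scale for each gene. The shaded areas are the 20 kb flanks, and a peak that runs past a flank is drawn to its edge. Peaks cover 71.7% to 100% of intron 1 in Sdc1, Sdc3, Sdc4 and Gpc1 and lie in a close series over the 5′ end of Sdc2, whereas Gpc5 has 1 peak and Gpc6 has 3.

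Sdc4 (ENSMUSG00000017009.3, GRCm38 chromosome 2, 164424247 to 164443887, minus strand) had the highest coverage of the family. Syndecan-4 is a focal adhesion proteoglycan that binds fibronectin and activates protein kinase C alpha. Its window held 9 peaks that covered 45.5% of it, and 3 of these overlapped the gene and covered 79.3% of its 19.6 kb. Genes were set beside those that differ by at most 20% in length. Of 2402 such genes for Sdc4, 26 reached its share, and their median was 10.4%. A single peak of 13657 bp, at 164430293 to 164443949, began 763 bp before the reference TSS, that of the principal transcript, and ended 12893 bp after it, so that it covered exons 1 and 2, all of intron 1 and both annotated TSSs. This width was at percentile 98.5 of the 14872 protein-coding genes with a promoter peak. A peak of 1352 bp in intron 4 and a peak of 1027 bp over the last exon lay further along the gene, and a peak of 1507 bp lay just downstream.

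The 20 kb upstream of Sdc4 was covered to 38.6%, the highest upstream share of the family, which ranged from 2.21% to 6.46% in the other 7. Both upstream peaks, of 5212 and 2443 bp, lay over TSSs of Sys1, a Golgi membrane protein gene on the opposite strand, and the second also lay over TSSs of Gm20458 and Gm14302. Downstream, 2 narrow peaks of 647 and 578 bp lay over TSSs of Matn4, which encodes a matrix protein. In the flanks of Sdc4, 4 of the 6 peaks thus lay at TSSs of other genes.

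Sdc1 (ENSMUSG00000020592.14, chromosome 12, 8771323 to 8793715, plus strand) was covered almost as densely. Syndecan-1 is best known from epithelia and plasma cells. Its window held 11 peaks with 35.8% covered, and the gene itself was covered to 75.7% of 22.4 kb by 6 peaks. Of 2475 genes of similar length, 25 reached this share, and their median was 9.62%. The promoter peak, at 8770655 to 8775796, was 5142 bp wide (percentile 77.1), began 668 bp before the reference TSS and lay over all 5 annotated TSSs. It also lay over the TSS of the divergent lncRNA Gm4755, 142 bp before that of Sdc1. A wider peak of 7450 bp, at 8784516 to 8791965, was found at the other end of the gene, where it ran from intron 1 over exons 2 to 5. Every part of the gene carried some H3K56ac, in 10 bins of equal length, from 19.3% in bin 4 to 100% in bins 1, 7, 8 and 9. No other member had a peak of at least 5 kb over its last exon.

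Sdc3 (ENSMUSG00000025743.14, chromosome 4, 130792537 to 130826319, plus strand) encodes syndecan-3, one of the surface markers of MuSCs. Its 20 peaks covered 37.3% of the window, and 12 of them covered 56.9% of the 33.8-kb gene, a share that 68 of 2248 genes of similar length reached (median 8.51%). The peak over the reference TSS was only 2080 bp wide, at 130791832 to 130793911. It was followed after 58 bp by the widest promoter peak of the gene, of 4280 bp (percentile 66.3), and by peaks of 3118 and 4129 bp further into intron 1. Intron 1 was covered to 78.8% of its 24.04 kb, whereas the last 9.865 kb of the gene, with exons 2 to 5, held no peak. A second series of 7 peaks began downstream of the gene and covered 36.9% of the downstream flank. Of the 19 gaps between neighbouring peaks of Sdc3, 10 were under 1 kb. The share of such gaps over all peaks of the series was not computed. The antisense gene Gm12970 starts within intron 1 of Sdc3 and Gm26716 near its end, and Gm12972, Gm26516 and the snoRNA gene Gm23711 start upstream, none of them under a peak. The gene has 5 annotated TSSs, 3 of them under a peak, and the count of 9 promoter peaks includes those near a TSS inside intron 1.

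Sdc2 (ENSMUSG00000022261.6, chromosome 15, 32920723 to 33034935, plus strand) is the longest syndecan gene, with 114.2 kb, and had the most peaks. Syndecan-2 is a proteoglycan of mesenchymal cells. All 26 peaks of the window overlapped the gene and covered 24.0% of the window and 32.0% of the gene. Of 1106 genes of similar length, 131 reached this share (median 6.86%). Its promoter peaks were narrow. The peak over its single TSS was 1067 bp wide, at 32920280 to 32921346, and the next, of 1445 bp (percentile 12.8), began 1015 bp behind the TSS. Behind them ran a close series of peaks, so that 21 peaks between 32920280 and 32954028 covered 83.3% of 33.7 kb at the 5′ end. After a stretch of 37.6 kb without a peak, 5 further peaks followed, of which the widest had 4058 bp and 1 lay over exon 2. Of the 25 gaps between neighbours, 22 were under 1 kb and the median gap was 266 bp. Since gaps were not counted over the whole series, close spacing cannot be called particular to Sdc2. Joined across gaps of less than 1 kb, the 5′ series became 1 region of 33749 bp, the widest promoter region of the family in that setting, so the place of Sdc2 in an order by promoter width depends on how the peaks are delimited.

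The Sdc2 window was the richest of the 8 in repeats. Repeat-masked sequence made up 54.5% of the bases outside peaks in the Sdc2 window, against 14.7% to 36.1% in the other 7 windows, and 19.2% of the bases inside its peaks. Only reads with a single alignment were kept, but how much of this repeat sequence allows a single alignment was not computed. The part of repeats in the gaps between these peaks was not tested.

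Gpc1 (ENSMUSG00000034220.7, chromosome 1, 92831645 to 92860779, plus strand) had the highest gene coverage of the glypican members, within the range of the syndecans. Glypican-1 is found in skeletal muscle and nerve and is a co-receptor for fibroblast growth factors. Its 7 peaks covered 24.3% of the window, and 6 of them covered 53.8% of the 29.1-kb gene, a share reached by 95 of 2440 genes of similar length (median 8.82%). The peak over the TSS, at 92831428 to 92835637, was 4210 bp wide (percentile 65.2) and was preceded at 105 bp by a peak of 884 bp. The widest peak, of 5429 bp, began 10597 bp behind the TSS in intron 1, which was covered to 71.7%. The last 9.087 kb of the gene held no peak, and neither did the downstream flank, where Ankmy1 starts.

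Intron 1 of Gpc1 also holds the microRNA gene Mir149, and a peak of 1671 bp lay over its annotated start and that of the antisense gene Gm29480. Another antisense gene in this intron, Gm29481, started under a peak of 3140 bp. The mature sequences from RefSeq, on the plus strand of GRCm38.p6 at chr1:92850381-92850403 for the 5p arm and chr1:92850421-92850442 for the 3p arm, are shown because they are the only mature microRNA of a member window that touched a peak. Capitals mark the seed, bases 2 to 8.
mmu-miR-149-5p: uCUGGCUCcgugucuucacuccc
mmu-miR-149-3p: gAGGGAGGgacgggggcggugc
The peak, at 92848755 to 92850425, covered all 23 bases of the 5p arm and the first 5 of the 22 bases of the 3p arm. The 2 arms do not share a seed.

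Gpc2 (ENSMUSG00000029510.15, chromosome 5, 138273655 to 138280005, minus strand) is the shortest member, with 6.35 kb, and encodes a glypican best known from the developing nervous system. Its window share of 26.0%, the highest of the glypican members, came mainly from neighbours. Only 1 of its 5 peaks overlapped the gene, and it covered 7.31% of it, near the middle of 2052 genes of similar length (percentile 51.1, quartiles 0% and 33.0%). This peak of 1757 bp (percentile 17.2), at 138279542 to 138281298, lay over 6 of the 7 annotated TSSs of Gpc2. It began 1293 bp before the reference TSS and ended in intron 1, and it also lay over 5 of the 6 TSSs of Stag3, a meiotic cohesin gene that starts 235 bp away in the opposite direction, and over the TSS of Gm43720. The remaining 4 peaks were all downstream, where they covered 51.4% of the flank. They lay over TSSs of Gal3st4, BC037034 with 6330418K02Rik, and Lamtor4, or within 3 kb of the last. Which of the genes that share these peaks accounts for the mark was not tested.

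Gpc5 (ENSMUSG00000022112.14, chromosome 14, 115092215 to 116525179, plus strand) was the least covered member. Glypican-5 is known to promote Hedgehog signalling. Its gene spans 1432.96 kb and overlapped a single peak of 1440 bp (percentile 12.7), at 115091080 to 115092519. This peak lay over 3 of the 4 annotated TSSs, including the RefSeq start at 115092215, but ended 107 bp before the reference TSS at 115092626. It covered 0.0213% of the gene, and 20 of 23 genes of similar length had at least this share (median 0.455%). Behind it no peak followed for 1832 kb, over the rest of Gpc5, the 400.1 kb between the genes and up to the promoter peak of Gpc6.

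Gpc6 (ENSMUSG00000058571.11, chromosome 14, 116925315 to 117976544, plus strand), the neighbour of Gpc5 and a glypican needed for skeletal growth, carried slightly more. Its promoter peak of 3289 bp (percentile 47.0), at 116924874 to 116928162, lay over all 4 annotated TSSs and exon 1. A second peak of 553 bp followed in intron 1, and another of 539 bp lay downstream of the gene. The gene was covered to 0.324% of 1051.23 kb, close to the median of 0.379% of 68 genes of similar length. The 1046.78 kb behind the second peak held none. Within Gpc5 start 4930505G20Rik, Gm18367 and Gm20713, and within Gpc6 starts Mir6239, none of them under a peak. Repeats took 36.1% of the Gpc5 window and 22.7% of the Gpc6 window, neither window contained an assembly gap, and both shares lay within the range of 13.2% to 46.02% of the other 6 windows. The part of repeats in the long stretches without a peak was not tested.

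**Figure D2:**
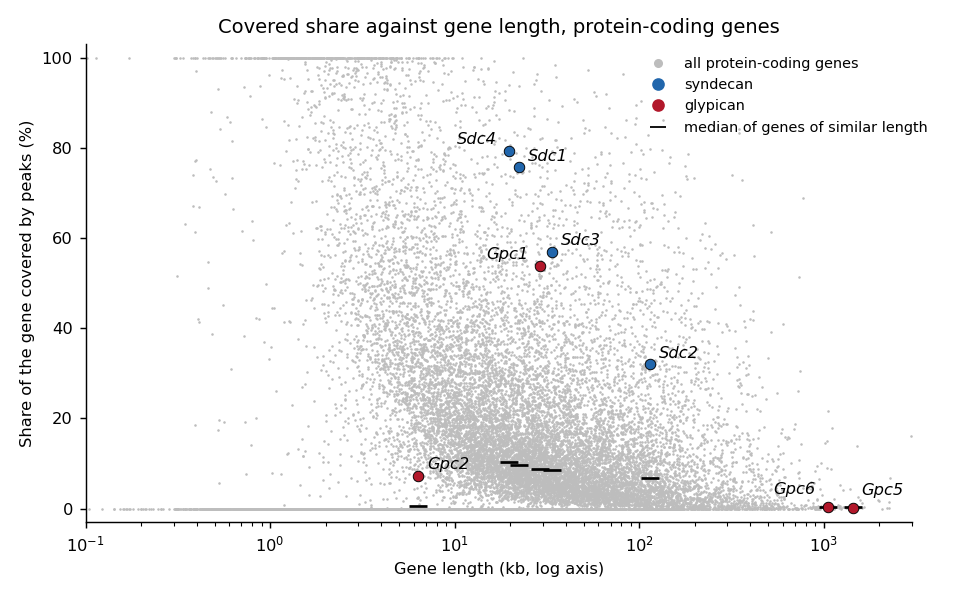
Share of each protein-coding gene covered by H3K56ac peaks (%) against gene length (kb, log axis), with all 21938 genes in grey, the syndecans in blue and the glypicans in red. Black dashes give the median of the genes that differ from a member by at most 20% in length. Sdc1, Sdc2, Sdc3, Sdc4 and Gpc1 lie far above their dash, Gpc2 above it by 7.31% against 0.585%, and Gpc5 and Gpc6 below it near 0.

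Coverage varied with gene length, with medians from 0.379% in the length class of Gpc6 to 10.4% in that of Sdc4, so the members were also read against genes of their own length, as in the plot of covered share against gene length. Sdc1, Sdc4, Sdc3, Gpc1 and Sdc2 stood at percentiles 98.99, 98.9, 97.0, 96.1 and 88.2 of their length classes, Gpc2 and Gpc6 at 51.1 and 48.5, and Gpc5 at 13.0. In 6 of the 8 members the covered share exceeded the median of the class, and in 5 when the class was widened to 50% of the length, where Gpc2 fell to percentile 49.3 and Gpc6 to 38.7. For Gpc5 the class holds only 23 genes, which limits the precision of its percentile.

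**Figure D3:**
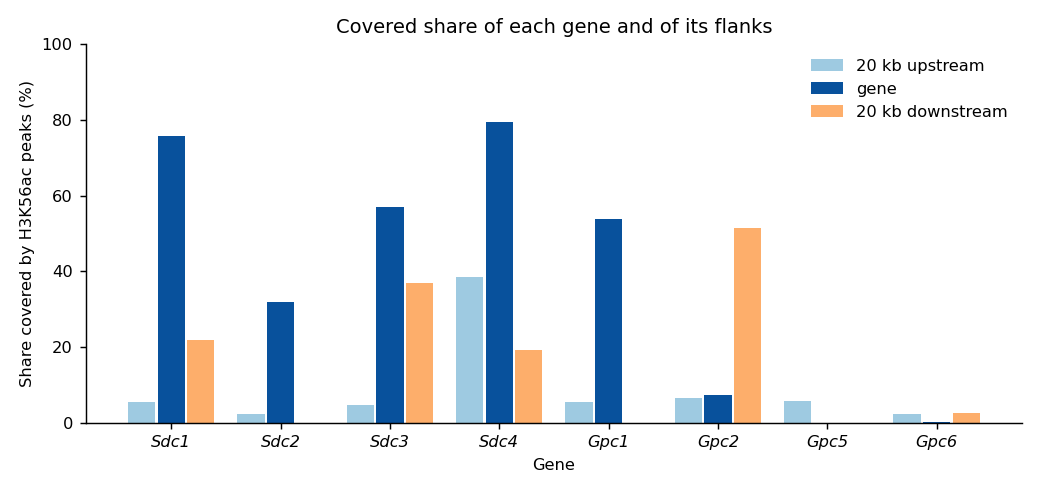
Share covered by H3K56ac peaks (%) of the 20 kb upstream, of the gene and of the 20 kb downstream of each member, starting at 0 on the vertical axis. The gene exceeds both flanks in Sdc1, Sdc2, Sdc3, Sdc4 and Gpc1, whereas in Gpc2 the downstream flank is highest at 51.4%.

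Whether the gene or a flank was covered to the higher share differed between members. The bars of gene and flanks show that the gene was covered more than either flank in all 4 syndecans and in Gpc1, while Gpc2, Gpc5 and Gpc6 had a higher share in a flank. The upstream share of Gpc5, 5.68%, came from its promoter peak, which extends ahead of the gene. Within the genes, 52 of the 57 peaks overlapped intron 1 of the reference transcript. That intron is also most of the gene in Sdc2 (95.8 of 114.2 kb), Sdc1 (17.7 of 22.4 kb), Gpc1 (21.2 of 29.1 kb), Sdc3 (24.0 of 33.8 kb) and Sdc4 (11.8 of 19.6 kb). The same count was not made over all protein-coding genes, so no preference for intron 1 can be read from it. Intron 1 was covered to 100% in Sdc4, 78.8% in Sdc3, 75.5% in Sdc1, 71.7% in Gpc1, 35.5% in Sdc2, 16.4% in Gpc2, 1.01% in Gpc6 and 0% in Gpc5. The last 10% of the gene was free of peaks in all members except Sdc1, with 50.1%, and Sdc4, with 32.2%. How many of all protein-coding genes lack a peak there was not computed, so a last part without a peak cannot be called particular to these members. The median covered share of the whole gene over all protein-coding genes, 7.82%, does not tell where the peaks lie.

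Promoter peak width gave another order of the family than the covered share. Sdc4 had the widest promoter peak with 13657 bp, followed by Sdc1 with 5142, Sdc3 with 4280, Gpc1 with 4210, Gpc6 with 3289, Gpc2 with 1757, Sdc2 with 1445 and Gpc5 with 1440 bp. All protein-coding genes with a promoter peak had a median of 3430 bp and quartiles of 2242 and 4945 bp. The width of Sdc3 depended on the definition, with 2080 bp for a promoter of 1 kb and 15769 bp, above Sdc4, when peaks less than 1 kb apart were joined. Sdc1 and Sdc4 lay above the upper quartile, Sdc2, Gpc2 and Gpc5 below the lower one. Sdc2 and Gpc5 differed by 5 bp in this measure but far more in covered window share, 24.0% against 0.0978%. Without replicates it cannot be said which neighbours in either order differ beyond the spread between samples.

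**Figure D4:**
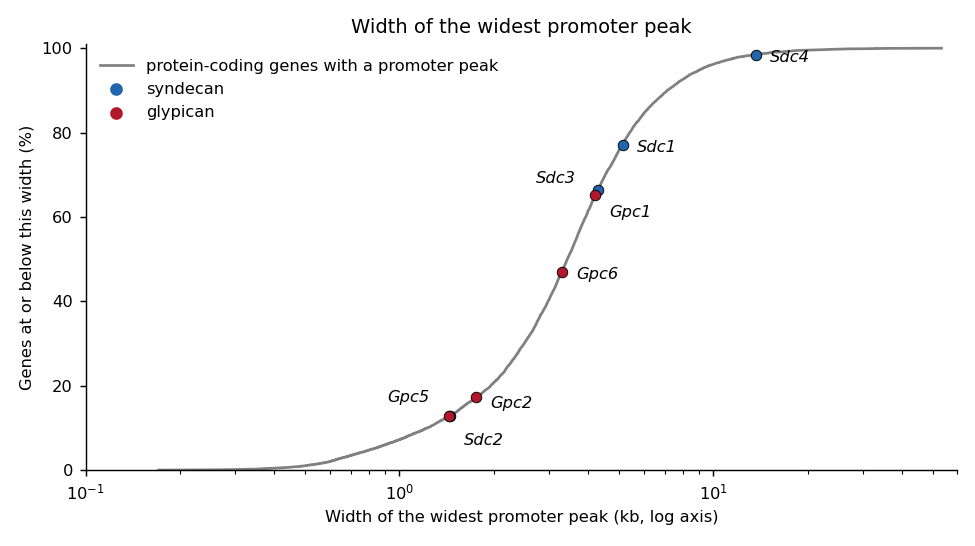
Cumulative share of protein-coding genes (%) against the width of their widest promoter peak (kb, log axis), with the 4 syndecans (blue) and 4 glypicans (red) on the curve of 14872 genes. Sdc4 lies near the top at percentile 98.5, and Sdc2 and Gpc5 coincide at percentiles 12.8 and 12.7.

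The median sequence composition under the peaks differed between TSS peaks and the others, but the ranges overlapped. The 9 peaks over a TSS of a member had a median width of 2080 bp, a median GC content of 55.1% and a median CpG ratio of 0.541. The other 73 peaks had medians of 972 bp, 48.6% and 0.178, and some of them lay over TSSs of other genes. The CpG ratio ran from 0.104 to 0.702 in the 9 peaks and from 0 to 0.651 in the 73. GC content ran from 46.9% to 62.8% in the 9 and from 29.8% to 59.1% in the 73. Over all windows, GC content was 49.6% under peaks and 39.8% in the rest, and without the AT-rich windows of Gpc5 and Gpc6 it was 49.6% and 45.4%. In these 6 windows GC boxes occurred at 0.455 per kb under peaks and 0.186 per kb outside, E-boxes at 0.826 and 0.598, TEAD motifs at 0.707 and 0.583, AP-1 motifs at 0.294 and 0.307, CCAAT boxes at 1.41 and 1.61, and TATA boxes at 0.469 and 0.843. Over the 6 windows together the GC box was thus denser under peaks and the CCAAT and TATA boxes sparser, but single members went the other way. In Sdc3 the GC box had 0.327 per kb under peaks and 0.367 outside, in Sdc4 and Gpc2 the CCAAT box was denser under peaks, and in Gpc1 the TATA box was. GC content was higher under peaks, and its part in these densities was not tested. The density of AP-1 motifs under peaks ranged from 0.134 per kb in Sdc1 to 0.479 per kb in Sdc4 among the 6.

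To place the core proteins among the genes that build and read heparan sulfate, lists of 41 pathway genes and of the remaining glypicans were described in the same way. Of the 41, 38 had a promoter peak and 34 a peak over a TSS, beside 67.8% and 62.1% of all protein-coding genes, and their median window share was 12.7%. The median of all protein-coding genes was 9.53%, and the syndecans, at 24.0% to 45.5%, lay in the upper part of the range of 0% to 54.1% of the pathway. All 11 genes of linkage and chain synthesis had a promoter peak, with window shares from 1.98% at Xylt1, which adds the first xylose, to 34.8% at Ext1, a chain polymerase. Of 16 sulfation and epimerase genes 14 had one. The exceptions were the N-deacetylase/N-sulfotransferase gene Ndst3 and the 3-O-sulfotransferase gene Hs3st2, which had no peak at all in its window, while the highest share was 54.1% at Glce, the glucuronic acid epimerase. Among the 5 genes that edit or release the chains outside the cell, the 6-O-endosulfatase gene Sulf2 had no promoter peak and a window share of 3.06%, whereas its paralogue Sulf1 had the highest share of the list with 36.2% and the heparanase-like Hpse2 the lowest with 0.870%. The 3 secreted heparan sulfate proteoglycan genes all had a promoter peak, from 16.1% at Agrn to 31.2% at Hspg2, and so did all 6 cytoplasmic partners of the syndecans, from 1.20% at Cask to 21.8% at Gipc1. Of the 2 glypican genes on chromosome X, which are not members, Gpc3 had no peak within the gene or its promoter. Gpc4 had a promoter peak of 2155 bp, 22 peaks within the gene and 12.4% of its window covered.

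**Figure D5:**
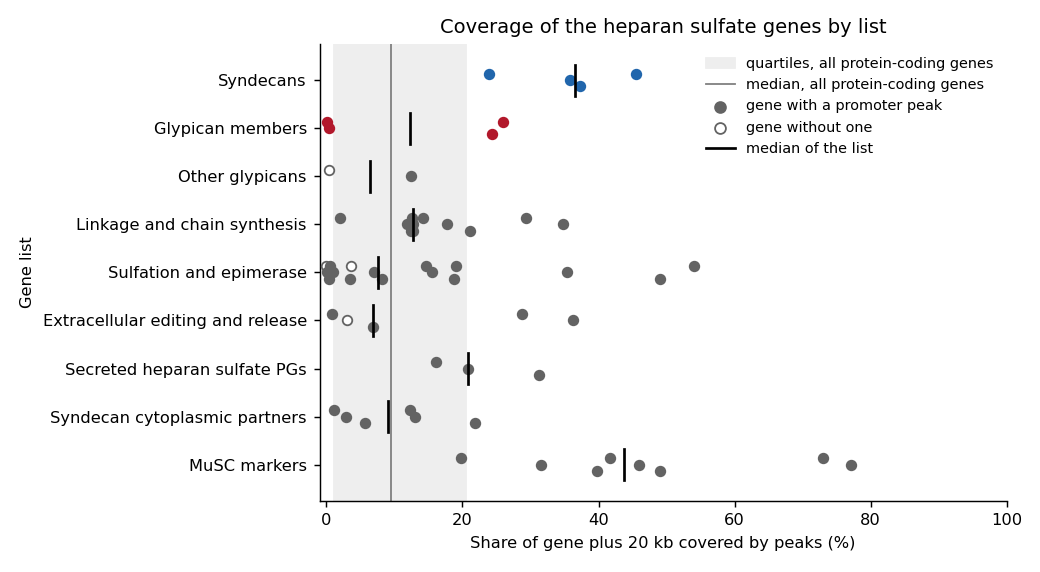
Share of gene plus 20 kb covered by H3K56ac peaks (%) for each gene of the heparan sulfate lists and of the MuSC markers, with the median of each list as a black bar, open circles for genes without a promoter peak, and the median and quartiles of all protein-coding genes in grey. The syndecan median of 36.6% lies between the medians of the pathway lists, 6.82% to 20.9%, and that of the MuSC markers, 43.8%, and the glypican members split into a pair at 24.3% and 26.0% and a pair near 0%.

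The label of the cells was checked with marker genes. All 8 MuSC markers had a promoter peak, with window shares from 19.8% at Cdh15 to 77.1% at Pax7. Of 20 markers of other cells, 12 had one, a share near the 67.8% of all protein-coding genes: 0 of 4 for blood, 3 of 4 for endothelium, 3 of 4 for fibro-adipogenic cells, 4 of 4 for myofibers, of which 1 had a peak over a TSS, and 2 of 4 for Schwann cells. The median window share of these 20 genes was 8.46%, with a range from 0% to 60.1% at Dpt, a fibroblast marker. By list the medians were 0.601% for blood, 4.58% for Schwann cells, 10.8% for endothelium, 13.2% for myofibers and 26.3% for fibro-adipogenic cells. The MuSC markers had a median of 43.8%, and the fibro-adipogenic median lay above the share of Cdh15. The paper reports that the sorted cells were not fully pure. Pax7, Cdh15 and Dpt were named after their values were seen. Whether cells other than MuSCs contributed to the peaks of the syndecan and glypican genes, several of which such cells also express, was not tested.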

How the data were processed

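ChIP-seq libraries had been made from sorted MuSCs with an Ion Torrent kit. The authors trimmed reads with Trim Galore, aligned them to mm10 with Bowtie, kept single alignments, removed duplicates with Picard, called peaks with MACS2, removed blacklisted regions and fused overlapping peaks into the deposited list. It holds positions only, and its score column was 0 throughout. Which libraries entered it is not given in the sources used here, so whether Sirt6mKO peaks are included is not stated. For its differential binding analysis the paper merged overlapping peaks into reference sets. For wild-type MuSCs it gives far fewer H3K56ac peaks than this list holds. The widths and covered shares should therefore not be read as those of Control MuSCs alone. The paper reports a global increase in the number of H3K56ac peaks in Sirt6mKO MuSCs. It also describes the peaks after Sirt6 inactivation as broader than those of other histone marks. The part of Sirt6mKO peaks in the widths and covered shares given here was not tested. Merging adds, widens and fuses peaks.

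From these positions, overlaps and covered bp were computed in Python 3.11.15 with numpy 2.4.6 against GENCODE vM21 (GRCm38, coordinates counted from 1), after tests on simulated intervals. The reference transcript was the APPRIS principal one. Covered shares were read beside all protein-coding genes and those within 20% of a member's length. No test was run, because the list has no values per sample.

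Named genes were the 8 members, Gpc3, Gpc4, genes starting in a member window and, per pathway list, those without a promoter peak and with the highest and lowest window share. Members and lists were chosen with earlier results of these data known. Alternatives changed the promoter distance, transcripts, flank, length class, minimum width and joining distance of the peaks.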

Additional observations from a re-analysis of the deposited data

How the results depend on the processing

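Of 27 alternative values for 8 summary results, 17 stayed near the value reported and 10 moved. These results have no sign, so a reversal could not have occurred in them. Counts were called near within 1.5 times, the covered share of the windows within its Wilson interval, and other values only when equal, so the 57 peaks without a flank and the 108 with a flank of 50 kb count as near 82. The Wilson interval takes each base as a separate trial, so it is narrow and measures no spread between peaks or samples. All 8 members kept a promoter peak under each of the 5 alternatives for it, and 7 had a peak over the reference TSS when only that TSS was counted, Gpc5 being the exception. Joining peaks less than 1 kb apart gave 39 peaks in place of 82, a covered share of the windows of 5.31%, a median covered share of the genes of 46.1% and a median widest promoter peak of 6074.5 bp in place of 3749.5 bp. Flanks of 5 and 50 kb gave window shares of 4.44% and 5.38%, and peaks of at least 500 bp gave 4.82% and a median gene share of 42.1%, against 4.91% and 42.9%. A promoter of 1 kb gave a median width of 2684.5 bp. A length class of 50% moved the median percentile from 92.1 to 92.4. Of the 28 pairs in the order by window share, 23 to 26 kept their order under 4 alternatives, Sdc4 led in all but the order by peaks per kb, which Sdc3 led, and Gpc6 and Gpc5 came last in all.

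No paired analysis was possible because no value in the list belongs to a single library. For the same reason the Sirt6mKO comparison was not run, replicates could not be left out, and a peak found in 1 library cannot be told apart from a peak found in all. Widths and counts therefore describe the merged list as a whole, whose libraries are not named, and the list gives no depth for a peak.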
